A study of Bos taurus with 81 samples.

Results

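H3K27me3 was compared between bovine 8-cell embryos (8C) and morulae (MO), each represented by 2 CUT&Tag libraries. These 4 libraries were chosen by mark and stage from the 81 libraries of the series, 18 of which profile H3K27me3. In CUT&Tag an antibody against a histone mark brings a transposase to chromatin, and the DNA that the enzyme cuts is sequenced. The embryos were produced in vitro and carried no genetic change. The 8C group was collected 56 h and the MO group 122 h after insemination, and neither group had received an inhibitor. Each 8C and MO library was made from about 1000 to 1500 pooled blastomeres, so a mark held by fewer cells and a weaker mark in every cell cannot be told apart. The labels do not say whether the 2 libraries of a group came from separate rounds of fertilisation, so the spread between them may be technical. H3K27me3 of germinal vesicle oocytes (GV), 2-cell (2C) and 4-cell (4C) embryos, 8-cell embryos cultured with 50 µg/ml of the transcription inhibitor α-amanitin (8A), whole blastocysts (BL), and of the trophectoderm (TE) and the inner cell mass (ICM) of blastocysts was used to follow the regions that differed. Embryos of 2C, 4C and 8A were collected 32 h, 44 h and 56 h after insemination, and BL, ICM and TE at 172 h. Each GV library was made from 500 oocytes, and those of the other groups from 1000 to 1500 blastomeres. H3K4me3, H3K27ac and H3K9me3 of 8C and MO, 12 libraries in all, were used to describe the same regions.

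H3K27me3 is written by the Polycomb repressive complex PRC2, whose catalytic subunit is EZH2 or EZH1, and it marks genes and broad domains that are kept silent. In oocytes of several mammals it lies over wide domains, and in the embryo it is lost from and written back to developmental genes. H3K9me3 is laid down by other enzymes, among them SETDB1 and the SUV39H proteins, and marks heterochromatin rich in repeats. H3K4me3 marks promoters and, in oocytes and early embryos, also broad domains away from them. H3K27ac marks active promoters and enhancers and occupies the same lysine as H3K27me3, so a single histone tail cannot carry both. The main activation of the bovine embryonic genome falls at about the 8-cell stage, between the groups compared here or shortly before them.

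A feature of the 8C lists touches most results below and is given first. Lists were compared with the Jaccard index of covered bases, the shared length as a fraction of the joint length, which is 1 for identical lists. The H3K27me3 lists and the H3K9me3 lists of 8C had an index of 0.599 on average over the 4 pairs, with a range of 0.587 to 0.611. The replicate pair of H3K27me3 in 8C had 0.634 and that of H3K9me3 had 0.673, so the lists of the 2 marks were almost as alike as replicates of 1 mark. In MO the index between the marks was 0.238, with a range of 0.221 to 0.256, against 0.722 and 0.630 for the replicate pairs. The same nearness of the marks was present in 4C, at 0.584, and in 8A, at 0.623. It was intermediate in 2C, at 0.382, and nearly absent in GV, at 0.0405. BL, ICM and TE had 0.277, 0.220 and 0.390. Whether the shared 8C signal is 2 marks on the same chromatin or signal common to the libraries for another reason was not tested, and results are therefore also given for the bins without H3K9me3.

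**Figure D1:**
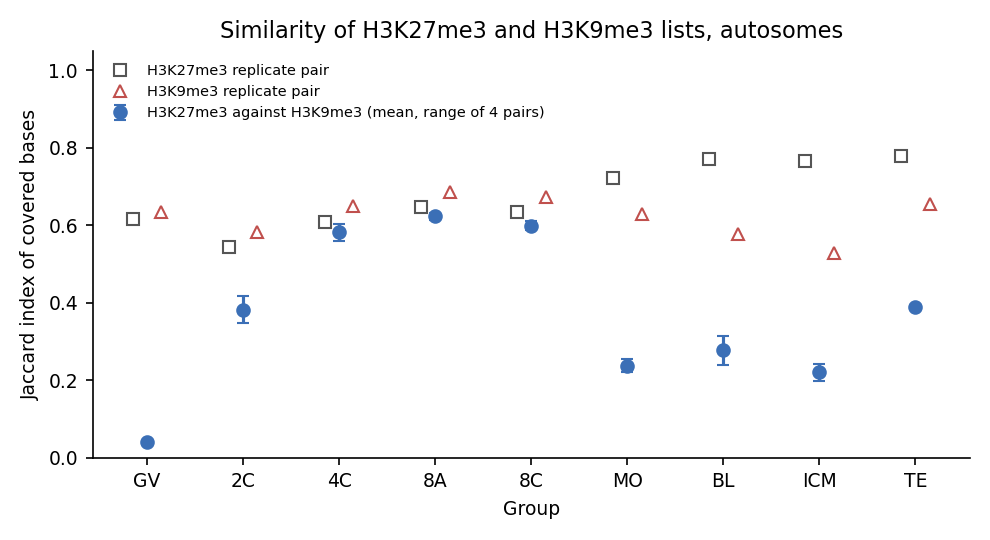
Jaccard index of covered autosomal bases (y axis, 0 to 1) in each group (x axis), for the replicate pair of H3K27me3 (squares), the replicate pair of H3K9me3 (triangles) and H3K27me3 against H3K9me3 (filled circles, mean with the range of 4 pairs). In 8C the circle lies at 0.599, just under both replicate pairs, and in MO it lies at 0.238, far under them.

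H3K27me3 covered slightly more of the autosomes in MO than in 8C. The 8C libraries covered 136.8 Mb and 139.7 Mb, and the MO libraries 163.1 Mb and 149.4 Mb. The groups did not overlap, and the MO mean of 156 ± 9.70 Mb (SD, n = 2) was 1.13 times the 8C mean of 138 ± 2.04 Mb (SD, n = 2). The difference of 0.18 in log2 covered length had an exact two-sided permutation p of 0.333, which is the smallest that 2 libraries against 2 can give. It was 0.11 without MO replicate 1 and 0.24 without MO replicate 2. No comparison of 2 against 2 libraries below can reach a lower p, so each is read beside the spread of the replicates. The number of domains, which are the deposited peaks, was 13988 and 12477 in 8C and 15988 and 18492 in MO. Sequencing depth is unknown for these lists. Per 200 bp of peak, the 1st percentile of the score, which would follow depth if the score were a count, was 2.06 and 2.22 in 8C and 2.44 and 2.11 in MO, so it overlapped between the groups. The median score per 200 bp was 3.48 and 3.72 in 8C and lay higher in both MO lists, at 4.94 and 4.34.

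The covered length hid a large change of place. The Jaccard index between an 8C and an MO list was 0.138 to 0.143, against 0.634 within 8C and 0.722 within MO. The mean within groups exceeded the mean between groups by 0.54 (exact permutation p = 0.333, the smallest possible). The 8C lists resembled those of 4C, at 0.549, and those of 8A, at 0.559. The MO lists were most like those of ICM, at 0.450, BL, at 0.416, and TE, at 0.394, and came next to those of GV, at 0.300. Against 2C, 4C and 8A they had 0.112, 0.125 and 0.163.

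The autosomes were divided into 497623 bins of 5 kb, and a bin was called marked where at least 50% of its bases were covered. Of these, 22472 were marked in both 8C libraries and 26937 in both MO libraries. A bin was kept if marked in all 4 libraries, lost if marked in both 8C and in neither MO library, and gained if marked in both MO and in neither 8C library. There were 5697 kept bins (1.14% of all bins), 15588 lost bins (3.13%) and 19126 gained bins (3.84%). Lost bins made up 69.4% of those marked in both 8C libraries, and kept bins 25.4%. The excess of gained over lost bins was small with lists trimmed by score to equal cover, at 16406 gained and 15770 lost bins. Without 8C replicate 1 there were 20125 gained and 20412 lost bins. Leaving out an 8C list loosens the rule for lost bins more than that for gained bins, so this turn follows in part from the rule. Gained bins made up 71.0% of those marked in both MO libraries, and kept bins 21.1%. A further 21187 bins were marked in some other combination and 436025 were marked in none of the 4 lists. Counted in bases in place of bins, 27.2 Mb were kept, 74.2 Mb lost and 93.3 Mb gained.

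Splits between replicates were smaller than the change between stages. Among bins without a mark in either MO library, 4493 were marked in the first 8C library alone and 4824 in the second alone, against 15588 marked in both. Among bins without a mark in 8C, 5203 were marked in the first MO library alone and 2757 in the second alone, against 19126 in both.

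Most domains of 8C shared no base with the MO lists, and most domains of MO shared none with the 8C lists. Of the 13988 and 12477 domains of the 8C libraries, 66.1% and 64.8% shared no base with either MO list, while 20.3% and 15.4% shared none with the other 8C library. Of the MO domains, 73.3% and 74.0% shared no base with either 8C list, and 9.33% and 13.5% shared none with the other MO library. Domains of 8C that were covered over at least 50% of their length in both MO lists numbered 3240 and 2936, or 23.2% and 23.5%. Long domains without overlap made up smaller shares. Of the 127 and 152 domains of at least 50 kb in 8C, 50 and 59 shared no base with MO, and of the 260 and 187 in MO, 45 and 35 shared no base with 8C. Score per base differed little between the fates in MO, where domains without overlap had a median rank at the 48.5 percentile in both lists. In 8C such domains ranked at the 46.1 and 45.7 percentile, and those at least 50% covered in MO at the 59.2 and 59.1 percentile.

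Domain length differed in opposite directions at the short and the long end. The median domain was 7 kb and 8.2 kb in the 8C libraries and 6.8 kb and 5.2 kb in the MO libraries. The groups did not overlap, with a mean difference of -1.6 kb, yet the first library of each differed by less than the replicates of either group. Weighted by length, the median was 12 kb and 13.6 kb in 8C and 13.4 kb and 11 kb in MO, so the groups overlapped (exact permutation p = 0.667), and the sign of the difference turned when the second library of either group was left out, to 0.2 kb without 8C replicate 2 and 0.6 kb without MO replicate 2. Domains of at least 5 kb held 90.1% and 94.2% of the covered length in 8C and 89.6% and 81.7% in MO. Domains of at least 50 kb held 6.65% and 7.89% in 8C and 12.7% and 9.30% in MO. These groups did not overlap at 5 kb and at 50 kb, with lower values in MO at the first limit and higher values at the second. At 10 kb and 20 kb they overlapped. The longest domain was 190 kb and 215.2 kb in 8C and 351.4 kb and 182.6 kb in MO. That of the first MO library lay at chromosome 9 from 102481401 to 102832800 (ARS-UCD1.2, counted from 1).

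**Figure D2:**
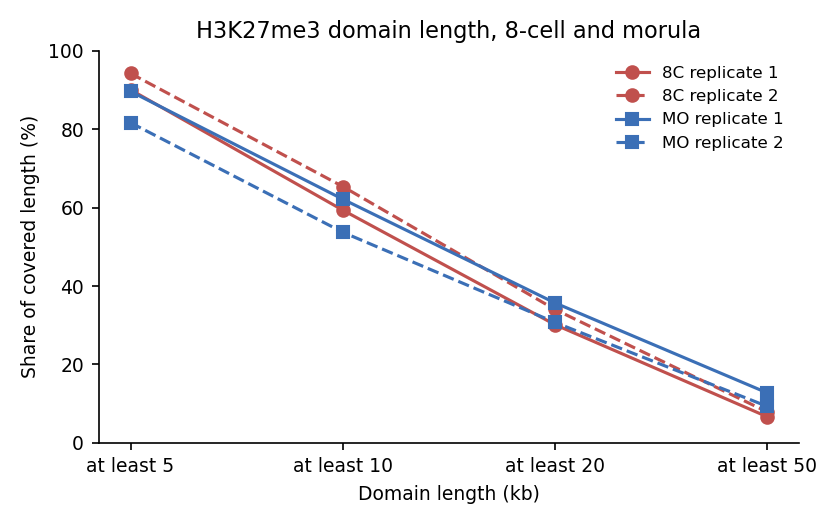
Share of covered autosomal length (y axis, percent) held by H3K27me3 domains of at least 5, 10, 20 and 50 kb (x axis), with 1 line per library. At 5 kb both MO lines lie under the 8C lines, and at 50 kb both lie over them, at 12.7% and 9.30% against 6.65% and 7.89%.

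The H3K27me3 libraries of other stages, which had no part in defining the classes, showed when each class was marked. Gained bins were marked at 60.8% and 57.1% in GV, at 3.07% and 3.90% in 2C, at 4.35% and 3.25% in 4C and at 8.09% and 8.65% in 8A. In BL they were marked at 86.3% and 86.4%, in ICM at 86.9% and 86.1%, and in TE at 81.3% and 82.9%. More than 50% of gained bins were thus marked in each GV library and over 81% in each blastocyst library, and under 9% in each library in between. Lost bins followed the reverse course after the oocyte. They were marked at 12.5% and 14.2% in GV, 55.5% and 66.9% in 2C, 85.8% and 82.6% in 4C and 81.4% and 83.8% in 8A. In BL the share was 19.5% and 18.4%, in ICM 9.12% and 9.92%, and in TE 20.1% and 20.5%. Of all bins, 9.78% to 11.6% were marked in each GV, BL, ICM and TE library, 4.49% to 6.46% in each 2C and 4C library and 6.02% and 6.34% in 8A. Gained bins lay below all bins in 2C and 4C and slightly above them in 8A. They are drawn from bins unmarked in both 8C lists, which were marked at means of 1.62% in 2C, 1.49% in 4C and 1.41% in 8A. Against that background, gained bins lay higher in each library of these 3 groups. Kept bins were marked at 62.5% in the lowest of these 14 libraries, a 2C library, and at 91.2% in the highest, an 8A library.

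The difference between the gained and the lost share was tested across these libraries. It was 68.7 ± 6.91 percentage points (SD, n = 6) in BL, ICM and TE and -30.8 ± 60.2 points (SD, n = 6) in GV, 2C and 4C. The means differed by 99.6 points (exact two-sided permutation p = 0.00216, the smallest that the 924 arrangements of 6 against 6 allow). The lowest later library had 61.2 points and the highest earlier library, a GV library, 48.4 points, so the groups did not overlap. The wide SD of the earlier group comes from GV, whose 2 libraries stood at 48.4 and 42.9 points while the 2C and 4C libraries stood between -81.5 and -52.5. Libraries of a group share a stage, and with the 3 group means against 3 as units the p was 0.1, the smallest possible for that design. BL, ICM and TE are all blastocyst samples of 172 h, so the later side is a single stage. These p values take its samples as separate units and do not measure the spread between stages. Without the bins that carried H3K9me3 in any 8C or MO list, the difference was 90.0 points (exact permutation p = 0.00216).

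**Figure D3:**
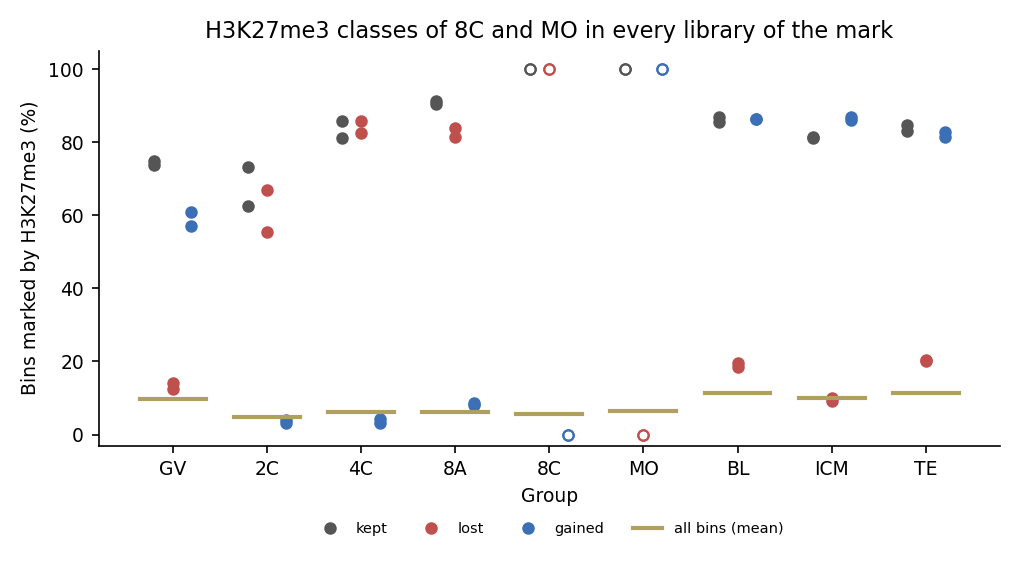
Percent of kept, lost and gained 5 kb bins marked by H3K27me3 (y axis) in each library of each group (x axis), with lines for the mean over all bins; open circles at 0 and 100% are fixed by the definition of the classes. Gained bins are high in GV, lie under 9% from 2C to 8A and over 81% from BL on, and lost bins run the other way after GV.

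GV status divided the gained bins. Of the 19126 gained bins, 10181 (53.2%) were marked in both GV libraries and 6746 (35.3%) in neither. Over the bins unmarked in both 8C lists, from which gained bins are drawn, 6.34% were marked in both GV libraries, and over all bins 7.58%. A set of 9488 gained bins (49.6%) was marked in both GV libraries and in neither 4C library. Marking in all 6 libraries of BL, ICM and TE was found for 74.2% of gained bins, against 6.85% of all bins. By GV status, the gained bins marked in both GV libraries were marked in BL at 93.1% and 92.9%, and those marked in neither at 75.6% and 76.3%. Both sets were therefore largely marked in the blastocyst, the first more often, in each of the 2 libraries.

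Lost and kept bins differed in the oocyte. Of the lost bins, 10.0% were marked in both GV libraries and 83.3% in neither, near the 7.58% and 88.0% of all bins. All 4 libraries of 4C and 8A marked 67.8% of lost bins, against 3.7% of all bins, while 73.8% were marked in none of the 6 libraries of BL, ICM and TE, against 84.4% of all bins. Of the kept bins, 70.7% were marked in both GV libraries, 71.1% in all of 4C and 8A, and 73.7% in all of BL, ICM and TE. H3K27me3 was thus found at most stages in the majority of kept bins. This did not hold in 2C and 4C for the 149 kept bins without H3K9me3 in any 8C or MO list. Those were marked at means of 38.9% in 2C and 43.6% in 4C. Of them, 81.9% were marked in both GV libraries, 20.1% in all of 4C and 8A, and 76.5% in all of BL, ICM and TE. Lost bins stood far above all bins in 4C and 8A, above them by less in GV, BL and TE, and slightly below them in ICM.

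H3K9me3 separated the lost from the gained bins. Lost bins were marked by H3K9me3 at 93.6% and 93.2% in the 8C libraries and at 9.21% and 14.2% in the MO libraries, a difference of -81.7 points on means of 93.4 ± 0.263% and 11.7 ± 3.52% (SD, n = 2 each, exact permutation p = 0.333, the smallest possible). Gained bins had H3K9me3 at 3.87% and 2.69% in 8C and at 20.5% and 27.4% in MO. Kept bins had it at 89.8% and 85.9% in 8C and at 70.4% and 80.3% in MO. The groups did not overlap in any of these 3 classes. Over all bins H3K9me3 stood at 6.95% and 6.88% in 8C and 4.51% and 5.81% in MO. In bins unmarked by H3K27me3 in both 8C lists, from which gained bins are drawn, its means were 1.54% in 8C and 3.64% in MO. Gained bins thus lay below all bins in 8C but above the bins they are drawn from.

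The H3K9me3 of lost bins was already present in the oocyte, where H3K27me3 was scarce. In GV, 84.9% and 85.5% of lost bins carried H3K9me3, against 7.75% and 7.65% of all bins, and in 2C the shares were 82.1% and 81.3%. Kept bins differed, with 24.2% and 25.3% in GV, 57.6% and 58.8% in 2C and 85.4% and 84.8% in 4C. Gained bins had 1.12% and 1.11% in GV, and the share went on above MO in BL, at 40.1% and 52.0%, and in TE, at 57.8% and 57.2%. Of all bins, 4.05% and 5.49% carried H3K9me3 in BL and 6.37% and 6.42% in TE.

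Most lost bins had lost H3K9me3 as well. H3K9me3 classes were formed by the same rule on the H3K9me3 lists. Over all bins, 4.03% had lost H3K9me3 from 8C to MO, and among bins that lost H3K27me3 it was 11907, or 76.4%. These made up 59.4% of all bins that lost H3K9me3. Most of all bins had no H3K9me3 in 8C to lose, so the 2 shares are not on an equal footing. Over all bins H3K9me3 was lost at 20039 and kept at 5893, and among lost bins it was kept at 1174. At bins marked by H3K27me3 in none of the 4 lists, H3K9me3 was lost at 2780 and kept at 106. Loss of H3K9me3 where it had been present was therefore not particular to lost bins. H3K9me3 was gained in 3230 (16.9%) of the gained bins, against 2.49% of all bins, and these were 26.0% of all bins that gained H3K9me3. It was kept in 59.8% of the kept bins, against 1.18% of all bins. Loss of both marks was thus more frequent among lost bins than gain of both among gained bins, and 13124 gained bins (68.6%) had no H3K9me3 in any 8C or MO list.

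Without bins that carried H3K9me3 in any of those 4 lists, a restriction chosen after the data were seen, 431 lost, 149 kept and 13124 gained bins were left. Loss and keeping of H3K27me3 were therefore seen almost wholly in bins with H3K9me3, and most of the gain was not. The GV status of the remaining gained bins was near that of all gained bins, with 58.5% marked in GV on average over the 2 libraries, against 59.0% before. Of the 431 lost bins, 43.4% and 42.7% were marked in GV, 47.6% and 44.3% in 4C and 24.4% and 23.4% in BL. That course was flatter than the one of all lost bins.

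**Figure D4:**
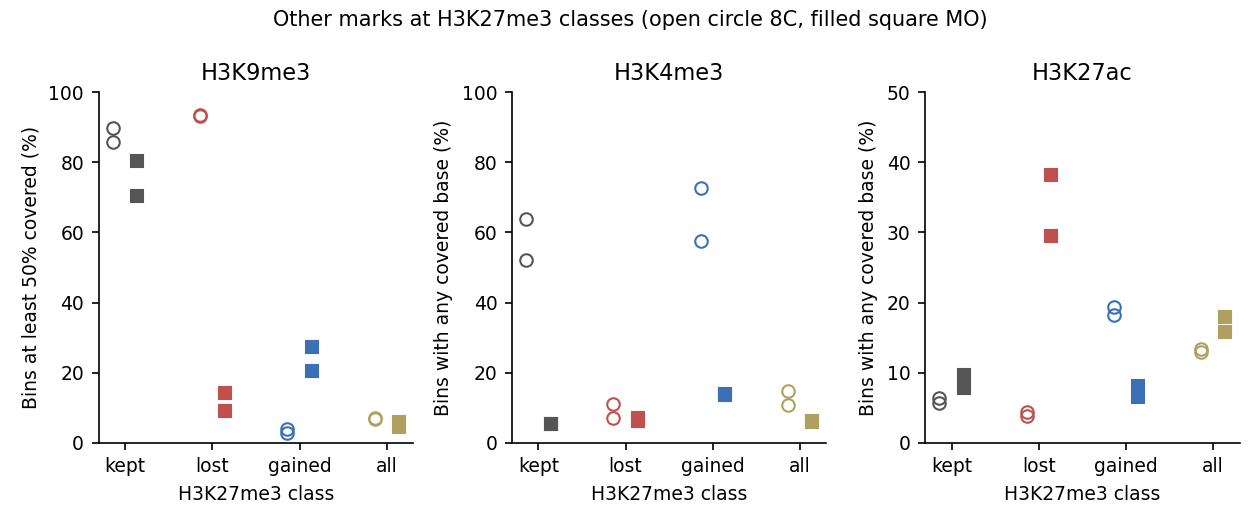
Percent of kept, lost, gained and all bins (x axis) that carried H3K9me3 over at least 50% of the bin, or any base of an H3K4me3 or H3K27ac peak (y axes, 1 panel per mark, the last from 0 to 50%), in each 8C (open circle) and MO (filled square) library. At lost bins H3K9me3 lies at 93.6% and 93.2% in 8C and at 9.21% and 14.2% in MO, H3K27ac at 4.46% and 3.82% against 38.2% and 29.5%, and at gained and kept bins H3K4me3 is lower in both MO libraries.

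H3K4me3 was lower in MO where H3K27me3 was gained or kept. Because its peaks are narrow, a bin was counted if any base lay in a peak. Gained bins held H3K4me3 at 57.4% and 72.6% in 8C and at 13.8% in both MO libraries. Kept bins held it at 52.2% and 63.7% in 8C and at 5.44% and 5.46% in MO. The difference was -51.2 points at gained and -52.5 points at kept bins, both larger than the gap between the 8C replicates, and the groups did not overlap (exact permutation p = 0.333 each, the smallest possible). At lost bins H3K4me3 was 7.15% and 11.2% in 8C and 6.22% and 7.04% in MO. H3K4me3 covered less of the autosomes in MO at large, with 68.6 Mb and 112 Mb in 8C and 43.4 Mb and 48.1 Mb in MO, and the share of all bins went from 10.8% and 14.6% to 6.00% and 6.32%. The part of this general difference in the values at the classes was not tested. By the rule used for H3K27me3, H3K4me3 was lost at 41.3% of gained and 45.3% of kept bins, against 5.22% of all bins. It was kept at 12.4% of gained bins, against 4.42% of all bins, and gained at 0.0993%, against 0.837%.

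H3K4me3 at gained bins dated from the oocyte. It was present at 88.7% and 90.7% of gained bins in GV, against 21.7% and 23.7% of all bins, at 82.6% and 80.8% in 2C, at 78.3% and 81.6% in 4C and at 63.4% and 60.3% in 8A. The 2C and 4C libraries overlapped, and both 8A libraries lay between the 8C libraries. At the gained bins marked by H3K27me3 in both GV libraries, H3K4me3 was found in GV at 94.9% and 96.6%, so both marks lay in the same 5 kb bins of the oocyte lists. In BL, gained bins had H3K4me3 at 12.4% and 14.2%, still above the 6.39% and 6.92% of all bins.

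H3K27ac was higher in MO at bins that lost H3K27me3 and lower at bins that gained it. At lost bins, any base of H3K27ac was found in 4.46% and 3.82% in 8C and in 38.2% and 29.5% in MO, a difference of 29.7 points (exact permutation p = 0.333, the smallest possible). At gained bins it went from 19.3% and 18.3% to 8.06% and 6.57%, a difference of -11.5 points. At kept bins the shares were 6.35% and 5.63% in 8C and 9.69% and 7.81% in MO, but by cover of at least 50% of the bin the direction turned, with 1.95% and 1.65% in 8C and 0.930% and 0.965% in MO. None of these groups overlapped. All bins together went from 12.98% and 13.4% to 17.9% and 15.8%, so lost bins stood below the general level in 8C and above it in MO. Gain of H3K27ac in both MO libraries was found at 3782 lost bins (24.3%), against 8.39% of all bins, and loss of it at 11.5% of gained bins, against 4.94%. H3K27ac in all 4 libraries was rarer, at 1.89% of lost and 1.99% of gained bins, against 4.29% of all bins. At lost bins without H3K9me3 the mean went from 6.15 ± 0.164% to 19.1 ± 1.48% (SD, n = 2 each). In MO those bins thus stood only slightly above the general level and well below the lost bins as a whole. Of the lost bins, H3K27ac touched 18.7% and 20.8% in BL, 31.1% and 28.3% in ICM and 21.7% and 22.4% in TE. Of all bins it touched 8.07% and 9.06%, 12.4% and 11.4%, and 8.72% and 9.14%.

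The gained bins without H3K27me3 in GV were those with more H3K27ac there. In GV, H3K27ac touched 64.2% and 62.9% of gained bins marked by H3K27me3 in neither GV library and 33.9% and 34.9% of those marked in both, against 19.0% and 18.8% of all bins. In 8C the shares were 18.7% and 18.8% for the first set and 19.8% and 18.2% for the second. The 2 kinds of gained bin therefore differed in H3K27ac in the oocyte and overlapped at the 8-cell stage. In 8A, H3K27ac touched 60.8% and 55.7% of all gained bins, compared with 44.8% and 46.5% in 4C and 19.3% and 18.3% in 8C. In 8A it touched 19.4% and 16.2% of all bins.

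The classes formed short runs along the chromosomes. Adjoining bins of a class were joined, which gave 2576 runs of kept, 6222 of lost and 8921 of gained bins, of which 54.0%, 46.7% and 54.9% were single bins. The longest run was 160 kb for kept, 190 kb for lost and 230 kb for gained bins. A neighbouring kept bin was found for 5.19% of gained and 4.27% of lost bins, and 15.1% and 12.5% of gained bins lay in an MO domain that also held a kept bin.

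Kept bins were frequent at the ends of the chromosome sequences. The autosomes of cattle are acrocentric, with the centromere near the start of the sequence. The last 2 Mb of the autosomes held 27.3% of kept, 13.5% of gained and 8.10% of lost bins, against 2.33% of all bins. The first 2 Mb held 5.44%, 1.91% and 3.24%.

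The longest kept runs carried H3K27me3 at every stage sampled, with little H3K9me3 in GV and much of it in 8C and MO. No gene annotation of this build was used, so the regions are given by position (ARS-UCD1.2, counted from 1) and without genes. Chromosome 16 from 205001 to 365000 was covered by H3K27me3 over 95.6% and 95.8% in GV, 99.2% and 99.9% in 8C, 98.8% and 97.4% in MO and 97.8% and 98.5% in BL. H3K9me3 covered none of it in GV but 98.8% and 96.8% in 8C and 89.9% and 96.4% in MO. H3K4me3 covered 40.2% and 60.7% of it in GV and none in MO. The other long kept runs lay on chromosome 11 from 105250001 to 105400000, chromosome 29 from 49415001 to 49540000 and chromosome 2 from 134225001 to 134335000. In these 3 runs H3K9me3 covered at most 8.48% in a GV library and at least 88.4% in each 8C and MO library.

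The longest lost runs held both repressive marks in 8C and little of either in MO. Chromosome 18 from 8050001 to 8240000 was covered by H3K27me3 over 99.8% in both 8C libraries and over none of its bases in both MO libraries. In GV the cover was 0 and 1.47%, in 4C 99.6% and 96.5%, and in BL, ICM and TE 0. H3K9me3 covered 99.6% and 99.7% of it in GV, 99.8% and 100% in 8C, 6.11% and 14.4% in MO and none in BL. H3K27ac covered none of this run in 8C and 13.6% and 8.24% in MO. Chromosome 3 from 91850001 to 92020000 had the same course, with H3K27me3 over 96.2% and 99.2% in 8C and 0 in MO and H3K9me3 over 99.6% and 100% in 8C and 0 in MO. The remaining lost runs named by the rule were on chromosome 13 from 76825001 to 77015000, where H3K27me3 returned to 24.8% and 22.5% in BL, and on chromosome 5 from 116995001 to 117170000.

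The longest gained runs had the mark in the oocyte, lacked it in 8C and held both repressive marks in the blastocyst. Chromosome 23 from 50170001 to 50400000 was covered by H3K27me3 over 74.96% and 76.0% in GV, 0 in both 2C and both 8C libraries, 24.7% and 30.3% in 8A, 98.2% and 97.3% in MO and 95.3% and 96.9% in BL. H3K9me3 covered none of it in GV, 4.35% and 0 in 8C, 40.96% and 56.8% in MO and 85.9% and 92.6% in BL. H3K4me3 covered 38.9% and 57.9% of it in 8C and 1.891% and 1.957% in MO. On chromosome 11 from 102520001 to 102655000, H3K27me3 covered 89.3% and 71.0% in GV, 0 in both 8C and both 8A libraries and 96.3% and 95.4% in MO. The gained run on chromosome 18 from 12095001 to 12250000 had 96.6% and 84.9% in GV, 2.06% and 1.16% in 8C and 96.5% and 98.8% in MO. That on chromosome 12 from 85955001 to 86090000 had 79.6% and 72.9% in GV, 0 and 0.889% in 8C and 96.0% and 94.5% in MO.

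Gain and loss were both concentrated in part of the genome. Of 2502 windows of 1 Mb, the 192 richest in gained bins (7.67%) held 50% of them, and the 185 richest in lost bins (7.39%) held 50% of those. The 250 windows richest in gained and the 250 richest in lost bins had 79 in common. Lost bins were absent from 1336 windows and gained bins from 843. The count of gained bins was highest at chromosome 23 from 50000001 to 51000000, with 115 gained, 18 kept and 5 lost bins of 200, and H3K27me3 there went from 14.4% and 13.7% to 70.2% and 69.1%. It was next highest at chromosome 13 from 81000001 to 82000000, with 113 gained and 0 lost bins, followed by chromosome 9 from 101000001 to 102000000 and chromosome 19 from 61000001 to 62000000, with 100 gained bins each. The windows with most loss also held gained bins. Chromosome 25 from 41000001 to 42000000 had 91 lost but also 28 gained and 24 kept bins, and the cover went from 61.4% and 60.3% to 33.7% and 34.0%. Chromosome 3 from 115000001 to 116000000 had 87 lost and 43 gained bins, chromosome 17 from 72000001 to 73000000 had 85 and 25, and the last window of chromosome 11, from 106000001 to 106972200, had 84 and 24.

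The difference was not alike on all autosomes. The covered percentages of 8C and MO did not overlap on 22 of 29 autosomes (75.9%), with MO higher on 18 and lower on 4. By the means, 22 autosomes were higher and 7 lower. Chromosome 24 differed most, with 3.04% and 3.40% in 8C and 8.58% and 8.10% in MO, a log2 ratio of 1.37 against 0.18 over all autosomes. Chromosomes 27 and 12 came next, with log2 ratios of 0.99 and 0.95 and means of 3.75% and 2.95% in 8C and 7.47% and 5.69% in MO. Chromosome 22 had the lowest ratio, with 8.86% and 8.69% in 8C and 5.85% and 5.49% in MO, a log2 ratio of -0.63. Chromosome 7 followed, from 5.66% and 5.80% to 4.10% and 3.65%, with -0.57, and chromosome 17, from 7.33% and 7.54% to 6.76% and 6.11%, with -0.21. On all 6 of these chromosomes the groups did not overlap.

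Net change and turnover were separate properties of a chromosome. Chromosome 25 had nearly the same cover at both stages, 11.1% and 11.2% in 8C and 11.8% and 10.8% in MO, yet 651 of its bins were lost, 676 gained and only 93 kept. Chromosome 6 kept the largest share of the bins marked in both 8C libraries, 47.4%, and chromosome 7 the smallest, 6.84%. More bins were gained than lost on 23 autosomes and fewer on 6. With 2 libraries in each group the order of chromosomes near the middle, such as 15, 16 and 25 with log2 ratios of 0.00, 0.01 and 0.02, cannot be told apart.

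**Figure D5:**
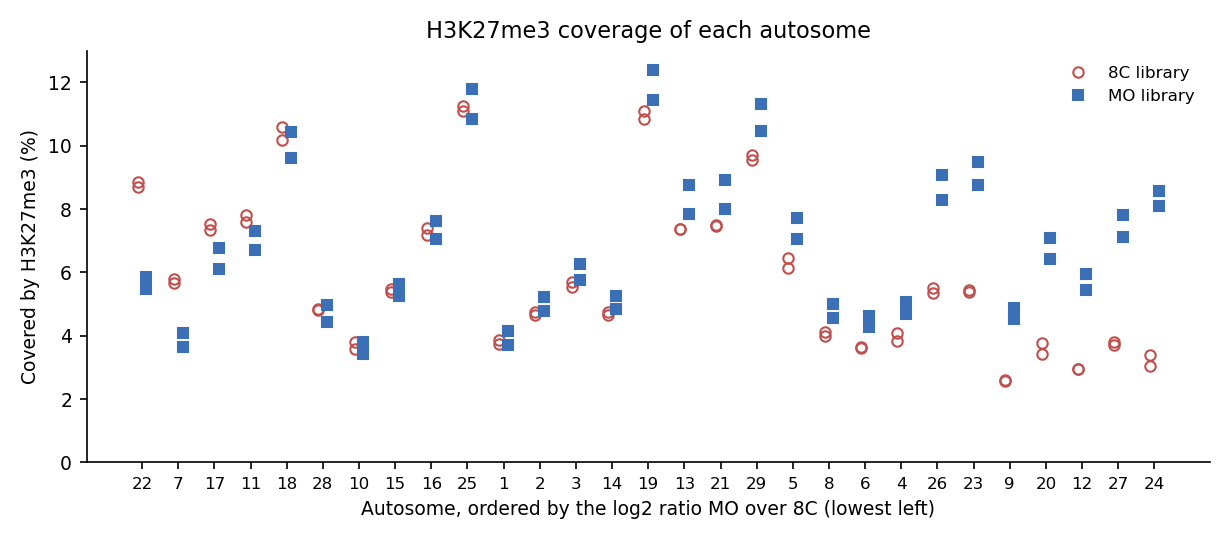
Percent of each autosome covered by H3K27me3 (y axis) in each 8C library (open circle) and MO library (filled square), with autosomes ordered by the log2 ratio of MO over 8C (x axis). Chromosomes 22 and 7 at the left lie lower in MO, those at the right up to chromosome 24 lie higher in MO, and in the middle the groups touch or overlap.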

How the data were processed

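The authors deposited 1 peak list for each library. The submitters' processing notes name BWA 0.7.9a, SAMtools 1.9, Picard 2.26.10, cutadapt 1.8.3, Trim Galore 0.4.0 and SICER, and the ARS-UCD1.2 build, while the deposited lists are named for epic2. Which cutoff and control library were used is not given in the sources used here. In the deposited lists the only value of each peak is a score, a whole number whose meaning the lists do not state. It served to trim or rank peaks within a list. Edges of H3K27me3 and H3K9me3 peaks lay on a 200 bp grid with gaps of at least 1200 bp, and those of H3K4me3 and H3K27ac on a 50 bp grid. The lists carry no library totals, so the depth is unknown, a longer list may reflect deeper sequencing, and no counting interval is given.

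Python 3.11.15, NumPy 2.4.6, pandas 2.3.3 and matplotlib 3.10.9 were used, and the code was tested on simulated lists. Peaks on autosomes 1 to 29 were counted in 5 kb bins. Group means were compared with exact two-sided permutation tests over libraries. Groups came from the titles. Replicate numbers were not used to pair the libraries. Regions were named by rule: the 4 longest runs of each class and the 4 windows of 1 Mb with most gained and most lost bins, each on a different autosome, and the 3 autosomes with the highest and lowest log2 ratio. The members, classes and rules were chosen with earlier results of these data known. Alternatives changed the bin size, the cover required, the lists (trimmed, stricter, joined), the chromosomes and the libraries included. A list of Polycomb target genes was not used here, since no annotation of this build was at hand, and no sequences are printed.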

Additional observations from a re-analysis of the deposited data

How the results depend on the processing

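By the rule set for each kind of value, 256 values over all alternatives stayed the same, 34 moved, 3 reversed and 2 were no longer past the threshold. Tested differences had to keep their sign and side of the threshold, and counts and shares had to stay near the main value. With 2 libraries against 2 no p could pass the threshold, so only the sign could change there. The lost and gained counts with the replicate block were fixed by definition. Counts scaled with the bin: with 2 kb bins 37881 were lost, 47790 gained and 13991 kept, and with 10 kb bins 7730, 8997 and 2781. Kept bins numbered 3712 at 75% cover and 9187 with any base covered. Gained bins were 55.1% of lost and gained bins together, 51.0% with lists trimmed by score and 50.7% with trimming by score per base. They were 49.6% without 8C replicate 1 (20125 gained, 20412 lost) and 60.4% without MO replicate 2. Leaving out a list loosens the rule for the classes, so that spread follows in part from the rule. The log2 covered length ratio ranged from 0.11 to 0.24 with 1 library left out. Leaving out bins with H3K9me3, chosen after seeing the data, left 431 lost and 149 kept bins and brought the gained share to 96.8%. Leaving out 1 library at a time gave 15983 to 20412 lost, 20125 to 24329 gained and 6092 to 6812 kept bins. The mean share of gained bins marked in GV was 62.0% with lists trimmed by score and 54.5% to 59.5% with 1 library left out. The later against earlier difference was 99.6 points with group means (exact permutation p = 0.1, the smallest possible for that design). With BL alone it was 98.3 points (exact permutation p = 0.0714), a p above the smallest that this unequal design allows. It was 89.4 to 115 points with 1 library left out.

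H3K9me3 was lost in 75.6% of lost bins at 2 kb, 77.7% at 10 kb, 75.7% at 75% cover, 75.4% with trimming by score and 74.5% by score per base, and in 68.0% to 75.3% with 1 library left out. It was gained in 17.5% of gained bins at 2 kb, 15.3% at 10 kb, 19.4% at 25% cover, 13.9% at 75% and 21.7% with any base, and in 16.5% to 16.8% with 1 library left out. It was kept in 57.8% of kept bins at 75% cover, 61.3% and 61.6% with the trimmed lists and 52.8% to 58.5% with 1 library left out. The excess of gained over lost bins turned without 8C replicate 1, where the rule for lost bins was looser. Length measures reversed too: the share in domains of at least 20 kb differed by 1.13 points where that of 10 kb differed by -4.43 points. The length-weighted median ranged from -1.8 to 0.6 kb with 1 library left out, at 0.2 kb without 8C replicate 2 and 0.6 kb without MO replicate 2. The median length ranged from -2.4 to -0.8 kb and the broad share from -8.65 to -0.22 points, the smallest differences being those without MO replicate 2. The causes were not tested.

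The labels do not say that the numbers 1 and 2 pair the libraries. The replicate difference of 8C and that of MO correlated at 0.00528 over marked bins. The lists of the stages share little, so this value cannot show whether the libraries are paired. With the replicate block the log2 covered length ratio was 0.18 (exact sign flips, p = 0.5, the smallest possible) and the median length difference was -1.6 kb. The 15588 lost and 19126 gained bins are by definition those changed in both same-numbered pairs, so the block could not alter them. Unknown depth and 2 libraries per group limit every value.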

Other observations

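Open chromatin was measured in the blastocyst only, with 3 ATAC libraries each of BL, ICM and TE, so it belongs to no comparison of 8C with MO. Any base of an ATAC peak was found in 34.8% to 52.4% of lost bins over these 9 libraries, against 16.4% to 22.4% of all bins. Gained bins, most of which carried H3K27me3 in the blastocyst, had an ATAC peak in 27.8% to 38.6%, and kept bins in 19.3% to 30.1%. In each of the 9 libraries the order was lost, gained, kept and all bins.

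On X, which was left out of the classes, H3K27me3 covered 3.14% and 3.48% in 8C and 4.29% and 3.796% in MO, so the groups did not overlap, with a log2 ratio of 0.29.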
